A study of Mus musculus with 6 samples.

Results

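The cytochrome P450 genes of families 2, 3 and 4, the flavin monooxygenase (Fmo) genes and the P450 reductase gene Por were followed in mouse lung. Members were the protein-coding genes of the count table whose GENCODE M21 symbol begins with Cyp2, Cyp3 or Cyp4, a single subfamily letter and a number, or is Fmo with a number, plus Por. Cyp2f2, a club cell marker, was left out. This gave 84 of the 55573 genes in the table: 47 Cyp2, 9 Cyp3, 20 Cyp4 and 7 Fmo genes, and Por. The lungs came from wild-type C57BL/6 mice aged 9 to 10 weeks and were sequenced as 6 RNA libraries. The CS group (3 libraries) was from mice kept in cigarette smoke for 75 min at a time, 2 times a day, on 5 days a week over 4 weeks. The SS-31H_CS group (3 libraries) was from mice that had cigarette smoke and SS-31, a mitochondria-targeted antioxidant peptide, given each day at 5 mg/kg. The comparison asks what SS-31 changed in the smoke-exposed lung. Every library is from a smoke-exposed mouse, so no smoke-free level stands beside these values. The smoke schedule is stated for CS alone, and nothing says that each library is a separate mouse, so p-values measure the spread between these libraries.

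Cytochrome P450 enzymes are heme proteins of the endoplasmic reticulum that put oxygen from air into their substrates, with electrons that POR passes on from NADPH. Families 2 and 3 oxidize many drugs and inhaled chemicals, and family 4 oxidizes mainly the far end of fatty acids and eicosanoids. Flavin monooxygenases oxidize nitrogen and sulfur atoms of small molecules without heme and without POR. In lung these enzymes are known above all from club cells, alveolar type 2 cells and endothelium, and they both activate and clear constituents of smoke.

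Library totals ran from 15611925 to 17360052 counts. A count of 0 in a library allows up to 3 counts, or 0.172 to 0.185 CPM (counts scaled to TMM-adjusted library size). These limits cover counting error only. Library CS replicate 3 stood apart on the leading axis of a principal component analysis over all tested genes (-66.7, against -14.1 and -6.4 for the other CS libraries). The summed FPKM of 10 alveolar type 2 markers was 13940 to 18350 in every library, and that of 9 hepatocyte markers was 1.13 to 2.43, with Apoc3 at 0 counts. Of 7 alveolar type 1 markers, Pdpn was at 0 counts in all 6 libraries.

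The members form gene clusters. The Cyp2 cluster on chromosome 7 (25802475 to 27158668 in GRCm38) holds 12 members, of which Cyp2s1, Cyp2b10, Cyp2b19, Cyp2a5 and Cyp2t4 had enough counts to be tested. The Fmo cluster on chromosome 1 (162793188 to 162984528) holds 5 members, all of them tested. The Cyp4f cluster on chromosome 17 (32452723 to 32947402) holds 8 members, 5 of them tested. None of the 14 Cyp2c genes grouped on chromosome 19 and none of the 8 Cyp3a genes grouped on chromosome 5 (145345279 to 146113287) was tested.

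The stretches upstream of the RefSeq start are shown for Cyp2e1, Cyp4f15 and Cyp2b19, the 3 members with the lowest p, and for Cyp4b1, the most abundant member (RefSeq, GRCm38.p6, 5′ to 3′, leaving out bases that GENCODE M21 places in an exon). Capitals mark a CCAAT box, here on the other strand as ATTGG. The stretches of Cyp2b19 and Cyp4b1 hold none.
Cyp2e1 (chr7:140763569-140763738, plus strand): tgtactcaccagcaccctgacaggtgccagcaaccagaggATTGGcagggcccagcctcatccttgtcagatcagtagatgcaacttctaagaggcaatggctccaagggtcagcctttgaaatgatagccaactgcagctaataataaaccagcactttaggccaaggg
Cyp4f15 (chr17:32685409-32685626, plus strand): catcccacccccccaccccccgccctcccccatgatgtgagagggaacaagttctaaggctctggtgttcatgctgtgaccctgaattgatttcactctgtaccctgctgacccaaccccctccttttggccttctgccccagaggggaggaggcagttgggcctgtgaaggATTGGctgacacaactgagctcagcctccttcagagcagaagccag
Cyp2b19 (chr7:26756892-26757141, plus strand): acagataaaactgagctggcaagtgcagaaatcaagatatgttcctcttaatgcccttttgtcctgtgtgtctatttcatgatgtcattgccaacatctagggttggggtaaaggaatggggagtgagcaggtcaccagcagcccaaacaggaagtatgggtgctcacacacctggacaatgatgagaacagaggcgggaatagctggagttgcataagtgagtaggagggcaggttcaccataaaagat
Cyp4b1 (chr4:115647724-115647971, minus strand): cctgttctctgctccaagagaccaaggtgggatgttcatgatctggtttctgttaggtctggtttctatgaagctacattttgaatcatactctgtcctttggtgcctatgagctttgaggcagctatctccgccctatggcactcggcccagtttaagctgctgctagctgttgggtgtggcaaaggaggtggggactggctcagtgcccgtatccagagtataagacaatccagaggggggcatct
RefSeq gave the 250 bases upstream for 67 members, 23 of them tested. On either strand of these windows, the core of the xenobiotic response element bound by the aryl hydrocarbon receptor (TNGCGTG) matched 0 of the 23 tested members and 4.76% of all 27025 genes with a window. The D-box core bound by DBP, HLF and TEF (TTANGTAA) matched 0 of the 23 and 2.44% of all genes. A CCAAT box was in 11 of the 23 and in 37.5% of all genes. A TATA box (TATAAA), which Cyp2e1 has 31 to 26 bases before its start, was in 4 of the 23 and in 14.3% of all genes. No match of one motif overlapped one of another in the windows of these 4 genes. A match, or none, describes only the letters in these windows.

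Most members were near or below the limit of detection in these lungs. In all, 32 members had 0 counts in every library. Among these were 11 of 15 Cyp2c genes and 6 of 9 Cyp3a genes. Another 24 had some counts, at most 31 in a library, and were too low to test. The remaining 28 were tested, 11 of 47 Cyp2, 1 of 9 Cyp3 (Cyp3a13), 9 of 20 Cyp4 and 6 of 7 Fmo genes, and Por. Members that pass such a filter through 1 group alone had to differ, so counts over the 28 are not counts over the family.

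**Figure D1:**
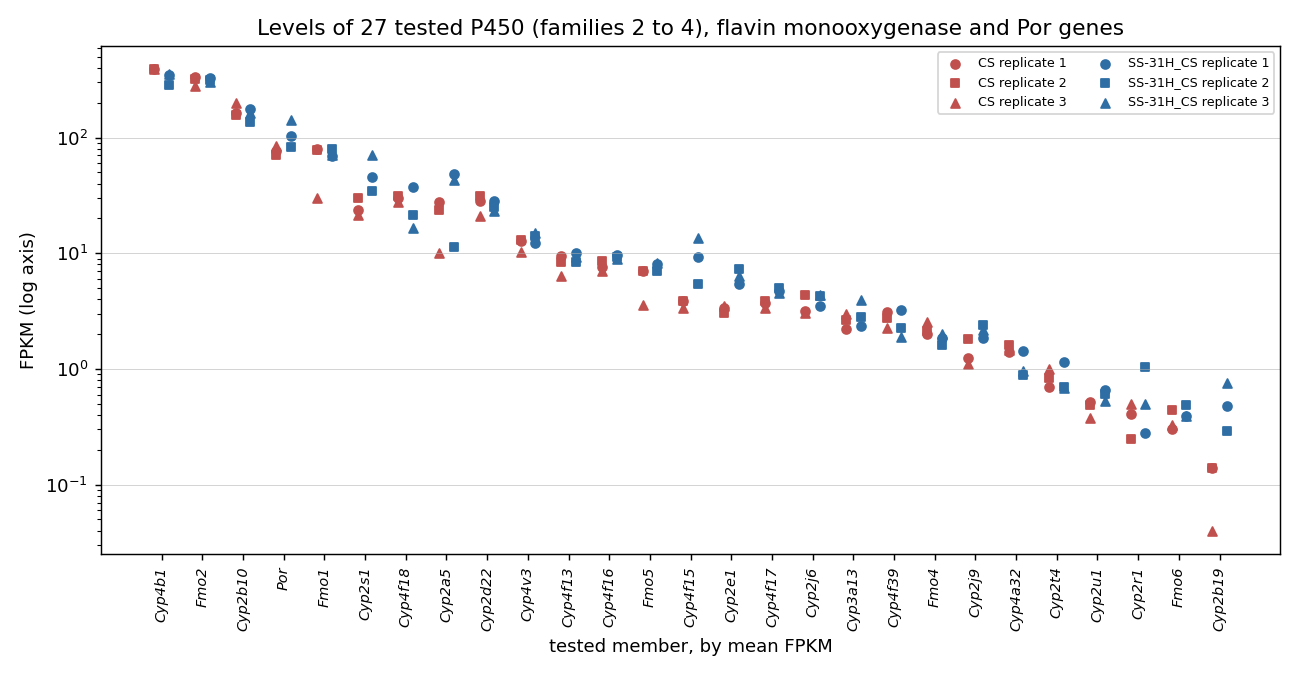
Level of 27 of the 28 tested members in the 6 libraries, in FPKM on a log axis, ordered by mean FPKM. Red points are CS and blue points SS-31H_CS libraries, with a marker shape for each replicate number. Cyp4b1 and Fmo2 lead at a mean of 358.8 and 312.5 FPKM, and Cyp2b19 is lowest at 0.307 FPKM.

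Per length of transcript, the lung pool was made of a few genes. Cyp4b1, which oxidizes fatty acids and activates some inhaled toxins, had a mean of 358.8 FPKM over the 6 libraries. Fmo2, the main flavin monooxygenase of mouse lung, had 312.5 FPKM. Cyp2b10, known as a target of the receptor CAR in liver, had 165.7 FPKM, followed by Por at 93.3 and Fmo1 at 68.0 FPKM. The leading 3 genes made up 71.8%, 71.1% and 76.3% of the summed member FPKM in CS replicates 1, 2 and 3. In SS-31H_CS replicates 1, 2 and 3 the shares were 66.3%, 68.2% and 62.5%, each below the lowest CS share. The summed FPKM itself was 1236, 1216 and 1138 in CS and 1282, 1080 and 1308 in SS-31H_CS. The groups overlapped in the sum, so the members' combined level did not separate them.

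**Figure D2:**
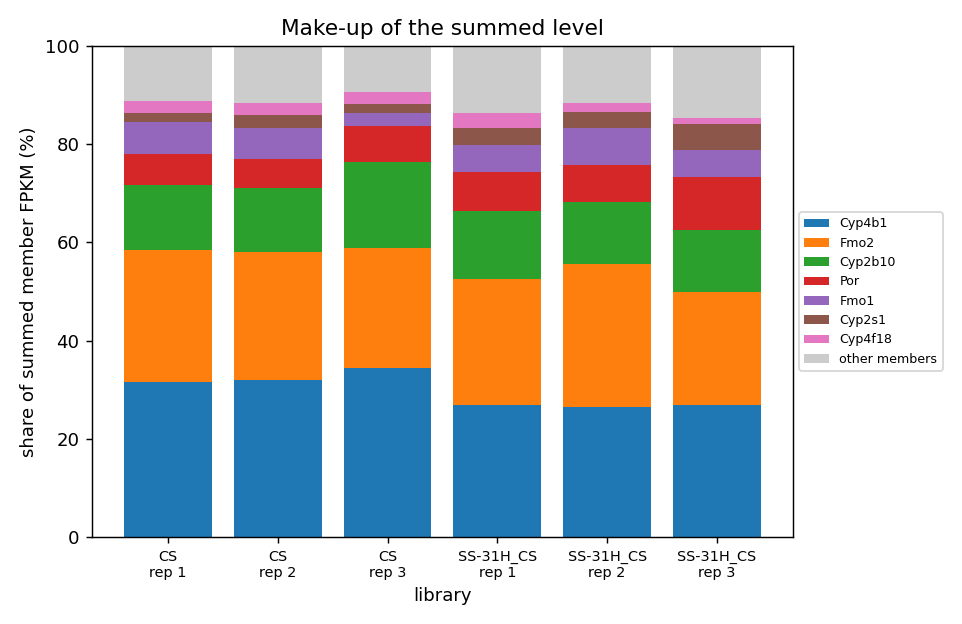
Share of the summed member FPKM (in percent, from 0) held by the 7 members with the highest median share in each of the 6 libraries, with all other members in grey. Cyp4b1 holds 31.5% to 34.4% in CS and 26.6% to 27.0% in SS-31H_CS, and Por reaches 10.9% in SS-31H_CS replicate 3.

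No tested member passed an adjusted p under 0.05 in the comparison of SS-31H_CS with CS (edgeR's quasi-likelihood test, Benjamini-Hochberg adjustment over 16965 genes). Over all genes tested 0.153% passed, 0.0707% higher and 0.0825% lower with SS-31. At an adjusted p under 0.1, 1 member (Cyp2e1) and 1.76% of all genes passed. At an unadjusted p under 0.05 (18.2% of all genes tested), 6 of the 28 were higher with SS-31 (9.93% of all genes tested) and 0 were lower (8.23% of all genes tested). The 6 were Cyp2e1, Cyp4f15, Cyp2b19, Cyp2s1, Cyp2j9 and Cyp4f17. Cyp2b19 passed the low-count filter only through SS-31H_CS, where it was high, so it had to differ. Without it, 5 of 27 members were higher at an unadjusted p under 0.05. DESeq2 passed 4 members, all higher: Cyp4f15 (adjusted p = 0.0027), Cyp2e1 (0.0034), Cyp2s1 (0.00914) and Cyp2b19 (0.013), or 3 without Cyp2b19. It passed 5.78% of all genes for which it gave an adjusted p, 3.32% higher and 2.46% lower. Without the low-count filter edgeR also passed 4 members, and 2.2% of all genes. The groups did not overlap in 9 of the 28 (26.1% of all genes tested), 7 higher (13.6% of all genes tested; 6 without Cyp2b19) and 2 lower (12.4%). Log2 fold changes ran from -0.50 to 2.20 with a median of 0.19, against a median of 0.01 over all genes tested. By family the median was 0.57 for Cyp2, 0.13 for Cyp4 and 0.19 for Fmo. The median over all members and that of Cyp2 include Cyp2b19, which had to differ. The Cyp2 median was the value of Cyp2r1, which had at most 34 counts in a library and -0.02 without SS-31H_CS replicate 2. Leaving out CS replicate 3 moved the Fmo median to 0.01, the Cyp4 median to 0.005 and the Cyp2 median to 0.45. The Cyp2 median was 0.41 to 0.79 over single libraries left out, and 0.17, 0.32 and 0.04 in the 3 fits on FPKM. Those fits cover other sets of members. The first and second hold 25 members of all families, without Cyp2b19 and Cyp2r1, and the unfiltered one holds 52.

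**Figure D3:**
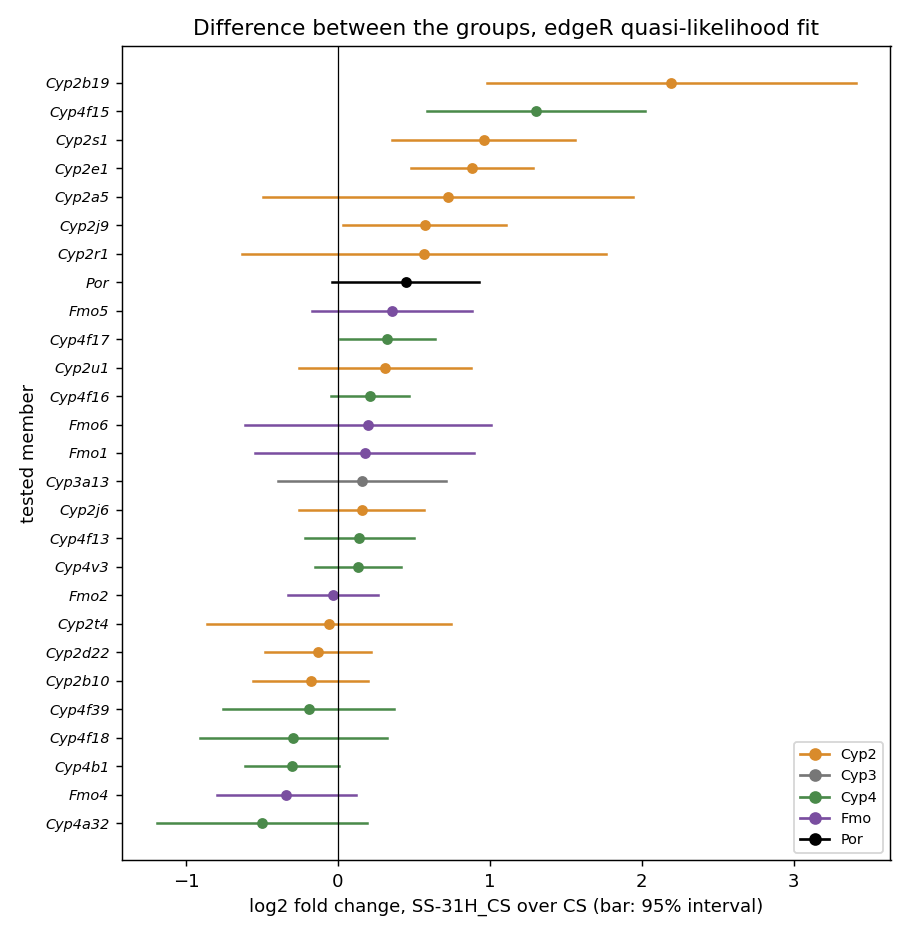
Log2 fold change of SS-31H_CS over CS for 27 of the 28 tested members with 95% intervals from edgeR's fit, coloured by family. Cyp2b19 (2.20) and Cyp4f15 (1.31) lie farthest to the right, and the interval of Fmo2 (-0.33 to 0.26) spans 0.

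Among enzymes of inhaled chemicals, Cyp2e1 had the lowest p. CYP2E1 oxidizes ethanol, benzene and other small molecules (ENSMUSG00000025479, chromosome 7, 140763739 to 140774987). Its level was 7.37, 6.47 and 8.02 CPM in CS and 11.69, 14.95 and 13.62 CPM in SS-31H_CS replicates 1, 2 and 3. All SS-31H_CS libraries were above all CS libraries. The log2 fold change was 0.88 (SE 0.18, 95% interval 0.48 to 1.28, edgeR adjusted p = 0.0889), from 7.28 ± 0.777 to 13.4 ± 1.64 CPM (SD, n = 3 per group). It stayed between 0.80 and 0.97 with any 1 library left out. Adipocytes also express Cyp2e1. The summed FPKM of 7 adipocyte markers was 75.3, 36.0 and 45.2 in CS and 55.9, 71.8 and 40.0 in SS-31H_CS, and its part in the Cyp2e1 value was not tested.

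Cyp2s1, a P450 of airway and other surface epithelia (ENSMUSG00000040703, chromosome 7, 25802475 to 25816913), was far more abundant. It stood at 118, 148 and 112 CPM in CS and at 224, 163 and 349 CPM in SS-31H_CS. The groups did not overlap, though SS-31H_CS replicate 2 lay just above the highest CS library. Its difference was 0.96 on the log2 scale (SE 0.26, 95% interval 0.36 to 1.56, edgeR adjusted p = 0.14), and 0.62 without SS-31H_CS replicate 3. Exons of Gm26707 on the other strand cover 5.27% of its exon length, and the strand setting of the counting is not given in the sources used here.

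Cyp2a5, the mouse coumarin and nicotine oxidizing enzyme (ENSMUSG00000005547), varied most within SS-31H_CS. It was at 58.1, 48.3 and 22.0 CPM in CS and at 100.6, 22.4 and 89.4 CPM in SS-31H_CS. The lowest SS-31H_CS library was at the level of the lowest CS library, 4.49-fold below the highest of its own group. The log2 fold change of 0.73 had a 95% interval of -0.49 to 1.95 (adjusted p = 0.494). Of its transcript 50-mers, 37.0% also occur in another gene, mainly Cyp2a4. Reads from shared stretches cannot be assigned with certainty, so the Cyp2a5 value is uncertain. Cyp2a4 itself had 0 counts in CS and 4, 1 and 6 in SS-31H_CS.

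Cyp2b19, known as an arachidonate epoxygenase of skin (ENSMUSG00000066704, chromosome 7, 26757142 to 26772630), had the lowest mean FPKM of the tested members. It passed the low-count filter through SS-31H_CS alone, with 0 of 3 CS libraries at the level the filter asks for. It had 10, 10 and 3 counts in CS and 34, 19 and 53 in SS-31H_CS, or 0.589, 0.572 and 0.185 against 2.01, 1.16 and 3.11 CPM. The difference was 2.20 on the log2 scale (SE 0.53, 95% interval 0.98 to 3.41, edgeR adjusted p = 0.117), with 1.79 to 2.48 when any 1 library was left out. Cyp2b10, in the same cluster and far more abundant, had a fold change of the other sign. It was at 349, 330 and 440 CPM in CS and 373, 272 and 344 CPM in SS-31H_CS (-0.18, 95% interval -0.56 to 0.20). Cyp2d22, the one Cyp2d gene with counts high enough to test, differed by -0.13 on the log2 scale (95% interval -0.48 to 0.22). Cyp3a13, the one tested gene of family 3, had 0.16 (adjusted p = 0.751), and its sign turned without SS-31H_CS replicate 3 (-0.09).

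Other family 2 genes encode enzymes of lipids and vitamin D. The arachidonate epoxygenase gene Cyp2j9 was at 4.18, 6.07 and 3.88 CPM in CS and at 6.20, 7.63 and 7.22 CPM in SS-31H_CS. These groups lay apart by a narrow margin (0.57, SE 0.23, adjusted p = 0.253). Cyp2j6, in the same cluster on chromosome 4, had 0.16 (95% interval -0.26 to 0.57, adjusted p = 0.668). Cyp2r1, a vitamin D 25-hydroxylase, had at most 34 counts in a library, and its log2 fold change of 0.57 was -0.02 without SS-31H_CS replicate 2. Cyp2u1, a fatty acid hydroxylase, had 0.31 (adjusted p = 0.533), with 10.4% of its exon length under exons of 4930534D22Rik on the other strand.

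In family 4, Cyp4f15 and Cyp4b1 had fold changes of opposite sign. Cyp4f15, a fatty acid and leukotriene hydroxylase gene (ENSMUSG00000073424, chromosome 17, 32685627 to 32703352), was at 8.90, 8.81 and 8.14 CPM in CS. In SS-31H_CS replicates 1, 2 and 3 it was at 21.1, 11.8 and 31.0 CPM. The CS libraries were close to each other and all SS-31H_CS libraries were higher, with a 2.62-fold range among them. The log2 fold change was 1.31 (SE 0.31, 95% interval 0.59 to 2.02, adjusted p = 0.117), and 0.93 without SS-31H_CS replicate 3. Cyp4b1 (ENSMUSG00000028713, chromosome 4, 115624725 to 115647723) was at 891, 869 and 928 CPM in CS and 773.2, 616.5 and 792.5 CPM in SS-31H_CS. All SS-31H_CS libraries were below all CS libraries, by a small amount (-0.30, SE 0.14, adjusted p = 0.292). The summed FPKM of 9 endothelial markers, none at 0 counts, was 1517, 1563 and 1195 in CS and 1197, 1248 and 1004 in SS-31H_CS. Of these, 8 had a negative fold change and 4 were lower at an unadjusted p under 0.05 (8.23% of all genes tested). By edgeR's test 0 passed and by DESeq2 2 (5.78% of all genes). Within each group the libraries ranked by the summed FPKM in the reverse of their order by Cyp4b1. Another summary was the mean log2 deviation over these markers (log2 CPM minus its mean over all libraries). By it the reverse order held in CS (0.271, 0.316 and -0.177) but not in SS-31H_CS (-0.053, -0.072 and -0.285). Of 10 alveolar type 2 markers, 7 had a negative fold change and 3 a positive one. All 12 club cell markers had a positive one. The part of these cell types in the Cyp4b1 value was not tested.

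Among the other tested Cyp4f genes of the chromosome 17 cluster, Cyp4f17 had the lowest p. Cyp4f17 was at 12.1, 12.2 and 11.3 CPM in CS and 15.05, 15.38 and 14.27 CPM in SS-31H_CS (0.33, SE 0.14, adjusted p = 0.259). Cyp4f16 also had groups that did not overlap (0.21, adjusted p = 0.363). Part of its sequence is shared with Cyp4f37, so reads from that part cannot be assigned with certainty. Cyp4f13 had 0.14 (95% interval -0.22 to 0.50). Cyp4v3, a fatty acid hydroxylase gene on chromosome 8, had 0.13 (95% interval -0.15 to 0.42), with 8.22% of its exon length under Gm45753 on the same strand.

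Cyp4f18, the leukotriene B4 hydroxylase of neutrophils, spread widely within SS-31H_CS. It was at 56.0, 58.0 and 54.4 CPM in CS and at 69.1, 38.2 and 30.2 CPM in SS-31H_CS. The SS-31H_CS libraries lay on both sides of the CS libraries (-0.29, adjusted p = 0.589), and the log2 fold change was -0.72 without SS-31H_CS replicate 1. The summed FPKM of 9 neutrophil markers was 4362, 3375 and 4855 in CS and 5208, 2122 and 672.8 in SS-31H_CS. The order of libraries by this sum was the same as for Cyp4f18 within SS-31H_CS and the reverse within CS. Within CS, Cyp4f18 spanned only 1.065-fold. By the mean log2 deviation over these markers the order within SS-31H_CS was again the same (0.746, -0.332 and -1.687). Within CS it was neither the same nor the reverse (0.563, 0.290 and 0.419). Of the 9 markers, 8 had a negative fold change and 1 was lower at an unadjusted p under 0.05 (8.23% of all genes tested). By edgeR's test or DESeq2 0 passed. Whether these markers bear on the Cyp4f18 value was not tested. In bulk tissue, fewer cells of a type and less RNA per cell cannot be told apart. Exons of Zfp961 on the other strand cover 9.76% of the exon length of Cyp4f18.

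Of the 6 tested flavin monooxygenase genes, 0 passed by edgeR's test or DESeq2, and 0 had an unadjusted p under 0.05. Fmo2 was at 1899, 1775 and 1645 CPM in CS and 1838, 1682 and 1675 CPM in SS-31H_CS. Its log2 fold change was -0.03 with a 95% interval of -0.33 to 0.26 (adjusted p = 0.908), the narrowest interval of the 6 tested Fmo genes. Its sign turned with scaling by library size alone (0.02). Fmo1, next to Fmo2 on chromosome 1, was at 513, 489 and 198 CPM in CS and 434, 482 and 441 CPM in SS-31H_CS. CS replicate 3 was 2.59-fold below CS replicate 1, while the other 5 libraries lay close together. That gave 0.18 on the log2 scale (95% interval -0.54 to 0.90, adjusted p = 0.789), and -0.15 without CS replicate 3. Fmo5 was low in the same library, at 40.8, 39.4 and 21.5 CPM in CS against 46.1, 38.1 and 46.2 CPM in SS-31H_CS (0.36, 95% interval -0.17 to 0.89). The summed FPKM of 8 fibroblast markers, none at 0 counts, was 1393, 1434 and 794.6 in CS and 1801, 1528 and 1679 in SS-31H_CS. The mean log2 deviation over these markers was -0.17 in CS replicate 3 and -0.14 in SS-31H_CS replicate 1, the library with the highest sum, and its part in these values was not tested. Fmo4, in the Fmo cluster on chromosome 1, lay lower in every SS-31H_CS library, at 6.787, 5.675 and 7.399 CPM against 7.48, 7.78 and 9.86 CPM (-0.34, adjusted p = 0.405).

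Por, the electron donor of these P450 enzymes (ENSMUSG00000005514, chromosome 5, 135670033 to 135735326), was at 313, 285 and 355 CPM in CS. In SS-31H_CS it was at 416, 315 and 569 CPM. SS-31H_CS replicate 2 lay inside the CS range and the other two lay above it. On the log2 scale the difference was 0.45 (SE 0.21, 95% interval -0.04 to 0.93, adjusted p = 0.307), and 0.20 without SS-31H_CS replicate 3.

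The libraries also differed in airway epithelial markers. The summed FPKM of 12 club cell markers was 52810, 44590 and 41410 in CS and 69610, 53960 and 112500 in SS-31H_CS. That of 10 ciliated cell markers was 740.1, 721.3 and 677.8 in CS and 916.4, 915.1 and 1376 in SS-31H_CS, and no marker of either list was at 0 counts. SS-31H_CS replicate 3 was highest in both lists. It was also the highest library for Cyp2s1, Cyp4f15, Cyp2b19, Por, Cyp3a13, Cyp4v3, Cyp2j6 and Fmo5, but not for Cyp2e1, Cyp2a5 or Cyp2j9. Within SS-31H_CS, replicates 1 and 3 were each the highest library for 11 of the 28 tested members. A peak in replicate 3 therefore does not set these genes apart. Of the club cell markers, 1 of 12 passed an adjusted p under 0.05 by edgeR's test (0.153% of all genes tested). By DESeq2 5 passed (5.78% of all genes), and 7 were higher at an unadjusted p under 0.05 by edgeR's test (9.93% of all genes tested). Of the ciliated markers, 0 of 10 passed by edgeR's test, 9 were higher at an unadjusted p under 0.05, and 8 passed by DESeq2. Cyp2f2, left out of the members and counted among the club cell markers, was at 1592, 1581 and 1393 CPM in CS and 2714, 1491 and 5666 CPM in SS-31H_CS, with overlapping groups (1.11, edgeR adjusted p = 0.225). The part of these markers in the members' values was not tested.

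**Figure D4:**
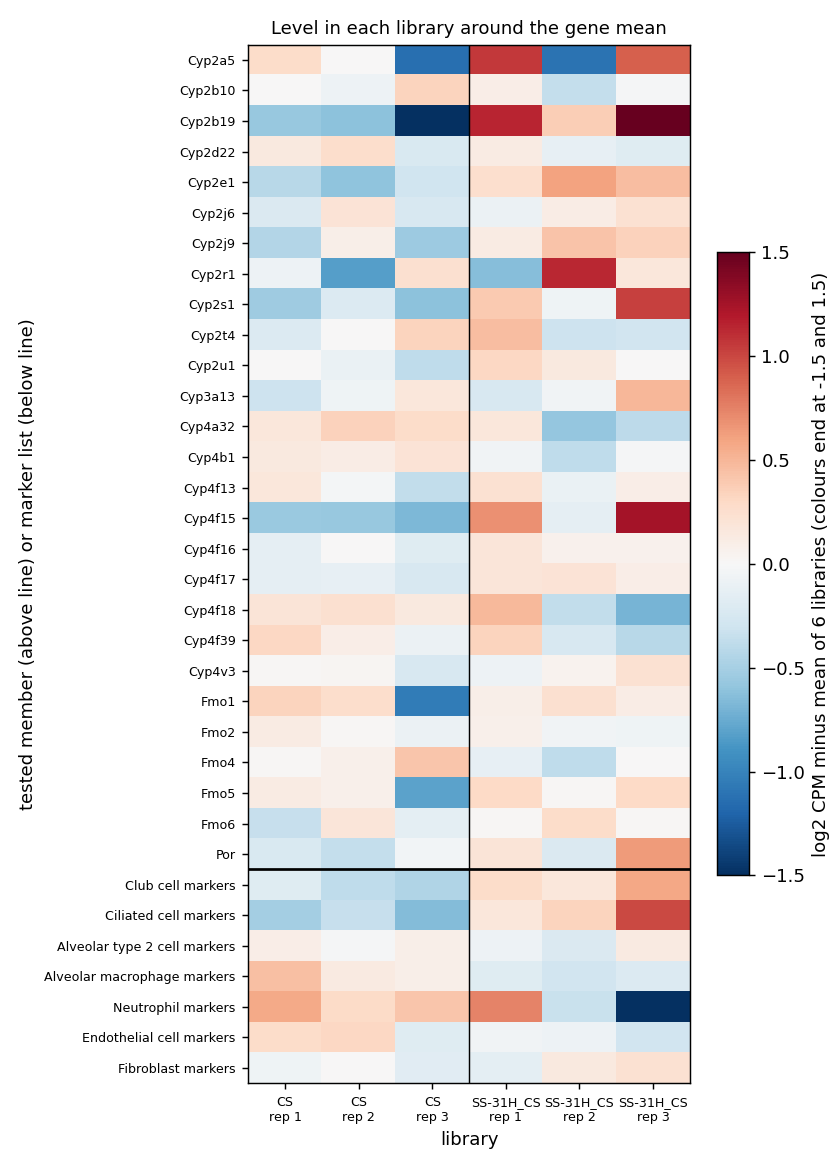
Log2 CPM of each of 27 tested members (above the line) and mean over each of 7 marker lists (below it) minus the mean of the 6 libraries, by library. Cyp2b19, Cyp4f15 and Cyp2s1 are darkest red in SS-31H_CS replicate 3, as are the club (0.57) and ciliated (0.99) markers, while Fmo1, Fmo5 and Cyp2a5 are blue in CS replicate 3.

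Within a group, the highest library exceeded the lowest by a median of 1.33-fold in CS and 1.29-fold in SS-31H_CS over the 28 tested members. The range passed 2-fold for 4 members in CS and for 7 in SS-31H_CS. CS replicate 3 was the lowest CS library for 17 of the 28, and SS-31H_CS replicate 2 the lowest of its group for 14. Shares over all genes tested are not given for these counts, so they do not set the members apart from other genes. The widest range in CS was that of Cyp2b19 (3.19-fold), at low counts, and in SS-31H_CS that of Cyp2a5.

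Several members too low to test, chosen here after their values were seen, had more counts in one group. Cyp4f37 had 0 counts in each CS library and 7, 12 and 1 in SS-31H_CS, or 6.71-fold higher with 3 counts set for the whole CS group. Cyp2c55 had 0 counts in CS and 4, 7 and 0 in SS-31H_CS, so its groups overlapped. On the same basis it was 3.69-fold higher, and Cyp2a4 gave the same ratio. These ratios take the SS-31H_CS counts as exact, so they are not lower limits. Cyp2g1, a P450 known from olfactory mucosa, had 3, 5 and 5 counts in CS and 12, 6 and 31 in SS-31H_CS. Cyp4a12b, a fatty acid hydroxylase, had 19, 9 and 6 counts in CS and 9, 4 and 0 in SS-31H_CS. Cyp4f37 shares 19.7% of its 50-mers with another gene (mainly Cyp4f16), Cyp2a4 38.8% (mainly Cyp2a5) and Cyp4a12b 49.5% (mainly Cyp4a12a), so these counts are uncertain. The low-count filter kept all 24 such members out of the adjusted p-values above. Fitted by edgeR without it, 0 of the 24 passed an adjusted p under 0.05, against 2.2% of all genes in that fit. The lowest adjusted p of the 24 was that of Cyp4f37 (0.0777). At an unadjusted p under 0.05, 5 of the 24 were higher and 0 lower. The share of all genes at that threshold is not given for this fit, so these counts do not set the 24 apart from other genes.

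Genes around the P450 system were read from lists with the same fit. Of 8 redox partners, which include cytochrome b5 and its reductases, 0 passed by edgeR's test or DESeq2 and 1, Cyb5b, was lower at an unadjusted p under 0.05 (-0.25, adjusted p = 0.249). Of 13 tested genes for heme synthesis and breakdown, 0 passed by edgeR's test, 2 were higher and 1 lower at an unadjusted p under 0.05, and 1 passed by DESeq2. Alas1, the rate-limiting enzyme of heme synthesis, was at 301, 284 and 338 CPM in CS and 440, 415 and 752 CPM in SS-31H_CS (0.80, SE 0.23, adjusted p = 0.15). Its groups did not overlap, with SS-31H_CS replicate 3 again highest.

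Of 13 tested xenobiotic and lipid receptor genes, 0 passed by edgeR's test or DESeq2 and 1 was higher at an unadjusted p under 0.05. That gene was Nr1i2, which encodes the pregnane X receptor, at 0.295, 0.801 and 1.05 CPM in CS and 1.18, 1.65 and 2.76 CPM in SS-31H_CS (1.38, adjusted p = 0.223). Nr1i3, which encodes CAR, was near 1 CPM and had -0.05 (adjusted p = 0.961), and Ahr had 0.37 (adjusted p = 0.461). The PAR bZIP factors DBP, HLF and TEF are known to drive Por and several P450 genes in liver. By edgeR's test 2 of the 4 genes of this list passed and by DESeq2 all 4. Dbp (3.86, edgeR adjusted p = 0.00191) and Hlf (1.20, edgeR adjusted p = 0.0467) rose, Tef had 0.88 (adjusted p = 0.08), and their antagonist Nfil3 had -1.44 (adjusted p = 0.0746).

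Of 14 tested P450 genes outside the families followed here, 0 passed by edgeR's test or DESeq2, and at an unadjusted p under 0.05 there were 4 higher and 2 lower. Cyp1a1, the smoke-inducible P450, had -2.76 (adjusted p = 0.165), with CS libraries at 290.1, 304.6 and 23.4 CPM and SS-31H_CS libraries at 14.1, 30.1 and 47.1 CPM. CS replicate 3 lay inside the SS-31H_CS range. Of 23 aldehyde, alcohol, carbonyl and ester enzymes, 0 passed by edgeR's test, 5 were higher and 3 lower at an unadjusted p under 0.05, and 4 passed by DESeq2, 1 higher and 3 lower. Nqo1, a quinone reductase, had the lowest p of these (-1.33, adjusted p = 0.0606).

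Of 19 tested eicosanoid enzymes, 0 passed by edgeR's test, 2 were higher and 4 lower at an unadjusted p under 0.05, and 2 passed by DESeq2. The prostaglandin dehydrogenase gene Hpgd was at 739.5, 789.4 and 812.4 CPM in CS and 424, 469 and 344 CPM in SS-31H_CS (-0.92, SE 0.14, adjusted p = 0.0646). All SS-31H_CS libraries were lower. Ptgs1, which encodes cyclooxygenase 1, also lay lower in every SS-31H_CS library (-0.79, adjusted p = 0.0889). Of 11 tested conjugation enzymes, 0 passed by edgeR's test, 2 were lower at an unadjusted p under 0.05, and both passed by DESeq2: Sult1a1 (-0.77) and Nnmt (-0.85).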

How the data were processed

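Lung RNA from 6 libraries, 3 CS and 3 SS-31H_CS, was read from tables of raw counts and FPKM per Ensembl gene that the authors deposited. Per the submitters' processing notes, the tools included HTSeq 0.6.1, HISAT2 2.0.1 and cutadapt 1.9.1, with GRCm38 as the build. The annotation release, strand setting and filters are not given in the sources used here. The counts as deposited carry no normalization, and the FPKM were computed by the authors, per the file headers. Symbols and coordinates came from GENCODE M21 (GRCm38) by Ensembl identifier (55394 matched, 179 not).

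SS-31H_CS was compared with CS in R 4.3.3 by the two-sided quasi-likelihood test of edgeR 4.0.16, after TMM scaling and filterByExpr. That filter asked for the level of 10 counts at the median library size in at least 3 libraries, and for 15 counts in total. Benjamini-Hochberg adjustment ran over all 16965 genes tested. A gene was called at an adjusted p under 0.05, and changes are log2 of SS-31H_CS over CS. SE was taken as the absolute log2 fold change over the root of the F statistic. Alternatives were RLE scaling, library size alone, no filter, 1 CPM in 3 libraries, DESeq2 1.42.0, limma 3.58.1 (voom, and trend on log2(FPKM + 1) or log2(FPKM + 0.1) for a mean FPKM of at least 0.5, or unfiltered), robust dispersion, the replicate number as a block, an adjusted p under 0.1, and leaving out each library. The tests were tested on simulated data. Those counts were drawn independently for each gene and held no outlying library. They therefore say nothing about how the tests act with a library such as CS replicate 3.

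Values of 1 tested member are not reported here. The members and lists were chosen with earlier results of these data known. Members named are the 12 with the highest mean FPKM, the 10 with the lowest p and 20 fixed genes, and outside them 10 fixed genes and up to 3 genes per pathway list with the lowest p. A gene shares a 50-mer with another when an identical stretch lies in any transcript of another GENCODE M21 gene on either strand.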

Additional observations from a re-analysis of the deposited data

How the results depend on the processing

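The number of members past an adjusted p under 0.05 was 0 in edgeR's fit, 4 without the low-count filter (52 members tested, with 648 of all 29410 genes called) and 4 by DESeq2, the same genes in both (Cyp2b19, Cyp2e1, Cyp2s1 and Cyp4f15). It was 1 at an adjusted p under 0.1, and 0 under the other alternatives, any 1 library left out included. Members higher at an unadjusted p under 0.05 numbered 6 of 28 (9.93% of all genes tested), with 4 to 7 over single libraries left out. Cyp2b19, among these 6 and among the 4 genes named above, had to differ. Without it the higher members numbered 5 of 27 in edgeR's fit. With members too low to test included, they numbered 11 in edgeR's fit without the low-count filter (52 members). They then numbered 9 by DESeq2 and 8 on log2(FPKM + 1) without a filter (52 members). Shares of all genes at this threshold are not given for the alternatives, so their counts cannot be set against them. Members lower at an unadjusted p under 0.05 numbered 0, with 1 under RLE scaling, DESeq2 or limma voom (Cyp4b1 each time), and 0 to 2 over single libraries left out. The median log2 fold change of the 28 tested members, Cyp2b19 included, was 0.19. It was 0.043 on log2(FPKM + 1) without a filter (52 members). On that scale with the filter it was 0.172 (25 members), and in edgeR's fit without a filter 0.212 (52 members). Direction turned for Fmo2 (-0.03) by library size alone (0.019) and in each of the 3 FPKM fits (0.022). Over single libraries left out, Fmo2 ran from -0.089 to 0.012, Fmo1 from -0.15 to 0.39, Cyp3a13 from -0.088 to 0.30 and Cyp2r1 from -0.017 to 0.89. Samples share only a replicate number: deviations of same-numbered libraries correlated at 0.001, 0.036 and -0.052. With the replicate number as a block, 0 members passed and the median was 0.19. Of the 56 members below the filter, 32 had no count, so that levels under 0.172 to 0.185 CPM (3 counts in a library) could not be compared.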
